A study of Mus musculus with 6 samples.

Results

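The transcripts described here encode the proteins of the cytosolic ribosome, measured in resting CD4+ T cells of B6 and B6-ChrYSJL mice. Members were chosen by name and not by their behaviour: transcripts whose platform annotation gave a single symbol of the Rpl or Rps series, with Rpsa, Rplp0, Rplp1 and Rplp2, and without the Rps6k kinases. Where several probe sets carried one symbol, the one with the highest mean over the 6 arrays stood for the gene. The rule gave 61 of the 19938 genes with 1 symbol, 38 of the large and 23 of the small subunit. Core ribosomal proteins made up 54 of them (33 large, 21 small), and the other 7 were Rpl3l, Rpl7l1, Rpl10l, Rpl32l, Rpl39l, Rps4l and Rps27l, whose names mark related copies. Of the 80 core proteins of the mammalian ribosome, 3 lie outside the rule by name, and 23 were not reached by it. For 15 of these 23, the probe sets carry several symbols.

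There were 6 arrays, 3 for each strain, and each array held RNA of sorted CD4+TCRβ+ cells from 5 pooled naive females, 8 weeks old. The cells came from lymph nodes of the axilla and groin (inguinal, brachial and axillary). B6 denotes wild-type C57BL/6J, and B6-ChrYSJL the same background with the Y chromosome (ChrY) of SJL. The females came from litters of both sexes and carry no ChrY themselves, so that the strains compared here differ in the ChrY of the fathers. Each pool averages over its 5 mice, so differences between single animals are not seen. Arrays correlated with each other at 0.991 to 0.993 (Pearson's r across transcripts), and none stood apart. All values are the deposited log2 values, and a level of 5.98, below which 95% of 1210 olfactory and vomeronasal receptor transcripts lay, served as background. The labelled cell type was borne out by its markers: the 7 T cell transcripts measured, Cd4 and Cd3e included, had pool means between 11.5 and 11.6 in both strains.

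A cytosolic ribosome joins a small subunit, which reads the mRNA, and a large subunit, which forms the peptide bond, and each holds a set of proteins that are needed in equal numbers. Messengers of vertebrate ribosomal proteins begin with a run of pyrimidines, the TOP tract, through which mTOR and LARP1 set their translation. Resting T cells make few ribosomes, and activation raises ribosome production steeply. RNA levels on an array hold nothing on translation, and in sorted pools fewer cells of a type and less RNA per cell cannot be told apart.

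Sequences around the annotated start are shown for members that the comparison turns on, since the TOP tract is a known feature of such genes that the rule did not use. Each holds 15 bases before and 15 bases from the start in RefSeq (GRCm38.p6), on the strand of the gene, and capitals mark every unbroken run of at least 8 C or T. Where a gene had several annotated starts, the one with the longest run is shown. Rps15a, Rpl34 and Rpl4 were among the members with the smallest p and hold at least 1 such run, Rps3a1, Rps3 and Rpl12 were so too and hold none, and Rps6 encodes the protein phosphorylated by the S6 kinases.
Rps15a, chr7:118116133-118116162, minus strand: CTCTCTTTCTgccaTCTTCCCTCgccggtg
Rpl34, chr3:130730323-130730352, minus strand: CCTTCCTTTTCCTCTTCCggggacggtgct
Rpl4, chr9:64173372-64173401, plus strand: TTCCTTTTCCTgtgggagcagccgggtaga
Rps6, chr4:86857353-86857382, minus strand: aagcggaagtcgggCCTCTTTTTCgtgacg
Rps3a1, chr3:86142654-86142683, minus strand: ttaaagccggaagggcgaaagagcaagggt
Rps3, chr7:99483695-99483724, minus strand: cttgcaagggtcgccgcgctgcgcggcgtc
Rpl12, chr2:32961697-32961726, plus strand: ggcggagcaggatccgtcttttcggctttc

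Of the 61 members, 49 had an entry among the RefSeq promoters. A run of at least 8 pyrimidines lay in this window in 17 of these 49 (34.7%), against 13.9% of all 27025 genes listed. It was found in 10 of 25 core genes of the large subunit and in 5 of 18 of the small subunit. The letters CTTCCG, sought on either strand of the 300 bases from 250 before to 50 after the start, occurred in 33 of the 49 members (67.3%) and in 18.8% of all genes. By subunit, 16 of 25 large and 15 of 18 small core genes held them. A gene with several annotated starts counted if any of them held the run or the letters. Genes with more starts therefore had more chances, and numbers of starts were not compared. An annotated start can lie some bases away from the one used in T cells, so a window without a run says only that these letters are not in it. Runs were counted anywhere in the window. The run of Rpl4 lies wholly before the annotated start and that of Rpl34 mostly so. A marked run is therefore not in itself a TOP tract.

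The level of a member is in part set by the rule, which took the brightest probe set of each gene, and is given as a description. Of the 54 core members, 43 had a 6-array mean above 12 on the log2 scale and 31 above 13. Only Rpl3l, Rpl10l and Rpl39l, all with names of related copies, lay below background, so that 58 of 61 members were above it. Rpl3l and Rpl10l are known from muscle and testis, respectively. The spread between pools of one strain was small: the residual SD of a core member had a median of 0.031, against 0.104 over all transcripts and 0.040 over 136 other transcripts with a mean above 12. The number of arrays limits the precision further.

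The strains hardly differed in the chosen probe sets of ribosomal protein genes. None of the 61 members passed an FDR of 0.05 or 0.1, and the smallest adjusted p was 0.402. Over all 23410 transcripts 0.0171% passed an FDR of 0.05 and 0.0726% an FDR of 0.1, that is 4 and 17 transcripts. At an unadjusted p under 0.05, 2 members were higher in B6-ChrYSJL, Rpl3l (below background) and Rps15a, and none was lower, against a background of 4.69% higher and 5.92% lower. For 51 of the 54 core members the 95% interval of the difference lay within 1.25-fold in either direction, and for all 54 it lay within 1.5-fold. The exceptions to the narrower bound were Rpl12, Rps3a1 and Rps15a. These bounds hold for the brightest probe set of a gene. Another can differ more, as for Rps14, with a log2 fold change of 0.31 on the dimmest and 0.006 on the brightest. Among 38 genes with several distinct probe sets, the dimmest had the higher value in 20.

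**Figure D1:**
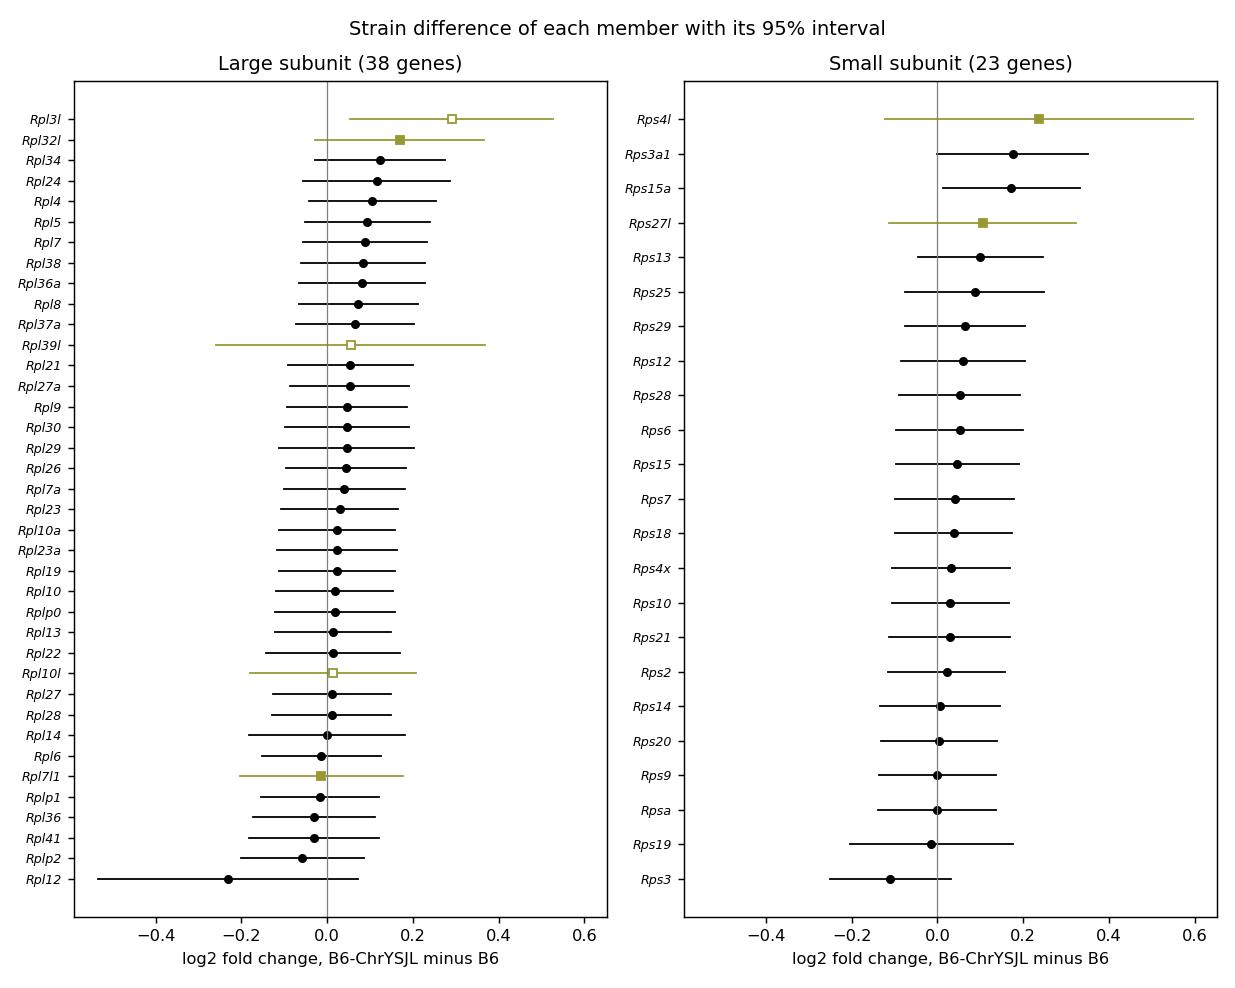
Log2 fold change of every member, B6-ChrYSJL minus B6, with its 95% interval from limma over 3 pools a strain, large and small subunit apart. Squares are members whose names mark related copies and open symbols lie below background. Core members lie close to 0, and of the core members the interval leaves 0 for Rps15a alone.

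A small shift towards higher values in B6-ChrYSJL ran through both subunits. The log2 fold change was above 0 in 50 of 61 members (82.0%), against a background of 48.9% over all transcripts and 44.4% over those above background. Its median was 0.040 for the members and −0.004 for all transcripts, and among 136 other transcripts with a mean above 12 it was 0.001, with 69 above 0. Most of these 136 were dimmer than 13. Between levels of 13 and 15 the median was 0.033 for 11 other transcripts and 0.035 for 96 core probe sets. Pools did not overlap between strains in 17 members: all 3 B6-ChrYSJL pools were higher in 16 (background 7.68%) and lower in Rps3 alone (background 9.42%). The shift and these counts moved with the scaling of the arrays. When quantile normalization was repeated on the tested transcripts, 22 of 38 large and 12 of 23 small subunit members were above 0, with 50.6% of all transcripts, and 8 members were higher without overlap (background 8.31%) and 5 lower (background 7.97%). When each array was centred on its median transcript above background, which moved every log2 fold change by 0.047, 36 of 38 and 22 of 23 were above 0, with 65.3% of all transcripts, and 43 members were higher without overlap (background 15.1%) and none lower (background 4.85%). Centring on the array median gave 8 higher (background 6.08%) and 4 lower (background 10.5%). In core members of the small subunit the sign of the median depended on the scaling, and was −0.005 after repeated quantile normalization.

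**Figure D2:**
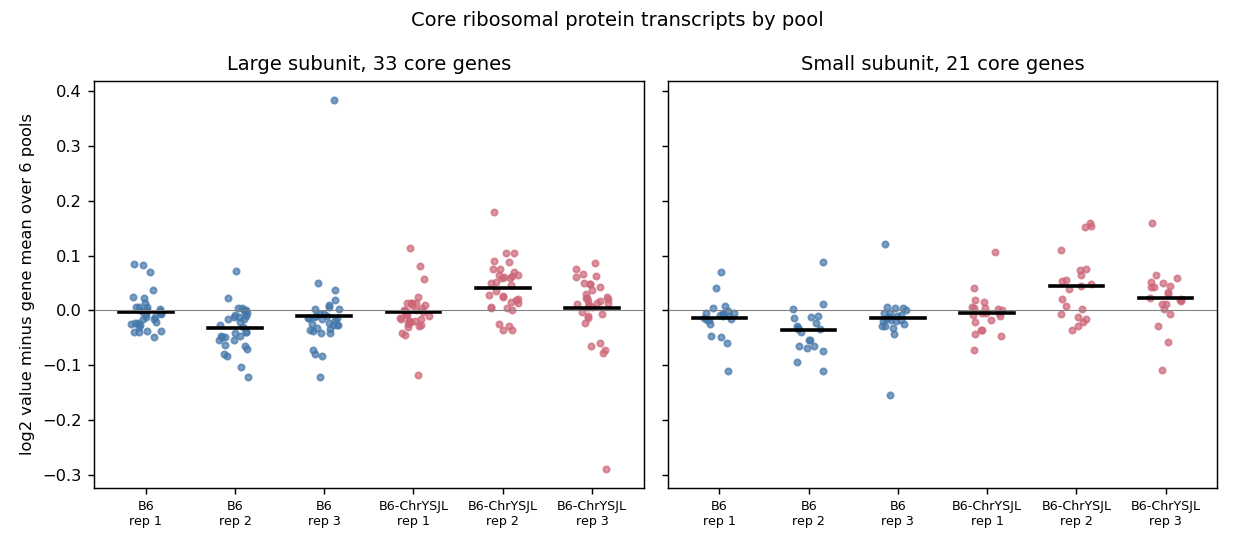
Log2 value of each core member in each pool minus its mean over the 6 pools, for 33 genes of the large and 21 of the small subunit, with lines at the mean over genes. The means stay between −0.035 and 0.045, lowest in B6 replicate 2 and highest in B6-ChrYSJL replicate 2 in both subunits, and the highest and lowest single points are those of Rpl12.

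The shift was uneven over pools. B6 replicate 2 held the lowest value of 29 of the 54 core members, and B6-ChrYSJL replicate 2 the highest value of 28. Relative to their means over 6 pools, the 33 core large subunit members averaged −0.002, −0.032 and −0.009 in the 3 B6 pools and −0.003, 0.042 and 0.005 in the 3 B6-ChrYSJL pools, so that B6-ChrYSJL replicate 1 lay within the range of B6. The 21 core small subunit members averaged −0.013, −0.035 and −0.014 in B6 and −0.005, 0.045 and 0.023 in B6-ChrYSJL, where every pool lay above those of B6. Deviations of core members from their strain means correlated at a mean pairwise r of 0.21 within the large subunit, 0.20 within the small and 0.21 between them, over the 6 arrays that all members share. Over all transcripts the mean was 0.0017, and over the other transcripts above 12 it was 0.047.

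Large and small subunits were compared next, since both are needed in equal number. The median log2 fold change was 0.035 over the 38 large and 0.041 over the 23 small subunit members, a difference of −0.006. Restricted to core members, the medians were 0.029 and 0.038, with 26 of 33 and 18 of 21 above 0. Repeated quantile normalization reversed the order, with 0.007 for the core large and −0.005 for the core small subunit. The mean of the large minus that of the small subunit was 0.038, −0.018 and 0.002 in the B6 pools and −0.011, 0.006 and −0.017 in the B6-ChrYSJL pools. These ranges overlapped. With core members alone the same quantity was 0.011, 0.003 and 0.005 in B6 and 0.001, −0.003 and −0.018 in B6-ChrYSJL, and every B6-ChrYSJL pool lay below those of B6. Both sets of pool values are given for the deposited values only. In the large subunit 11 of 38 members were higher in all 3 B6-ChrYSJL pools and in the small subunit 5 of 23, with 1 lower, against 7.68% higher and 9.42% lower over all transcripts. The counts of higher members were 4 and 4 after repeated quantile normalization (background 8.31%), 6 and 2 after centring on the array median (6.08%), and 26 and 17 after centring above background (15.1%).

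Large subunit members with the smallest p were Rpl3l, Rpl32l, Rpl34, Rpl12 and Rpl4. Rpl34 measured 10.64, 10.54 and 10.57 in B6 and 10.76, 10.65 and 10.71 in B6-ChrYSJL. All B6-ChrYSJL pools were above all B6 pools, by 0.12 (SE 0.07, n = 3 pools a strain), with an adjusted p of 0.545 in limma. Rpl4, one of the large subunit proteins that line the exit tunnel, measured 12.71, 12.65 and 12.58 in B6 and 12.76, 12.75 and 12.75 in B6-ChrYSJL. These groups did not overlap either, and the difference of 0.11 (SE 0.06) had an adjusted p of 0.601. Rpl3l measured 5.44, 5.25 and 5.02 in B6 and 5.49, 5.54 and 5.55 in B6-ChrYSJL, a difference of 0.29 (SE 0.10, adjusted p 0.402) in which every value lay below background. Without B6 replicate 3 it was 0.18. Rpl32l, at 6.16 to 6.26 in B6 and 6.23 to 6.52 in B6-ChrYSJL, lay just above background and differed by 0.17 (SE 0.09).

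The stalk of the large subunit recruits translation factors and is built on Rplp0, which binds Rplp1 and Rplp2, with Rpl12 at its base. Rpl12 measured 8.43, 8.22 and 8.73 in B6 and 8.32, 8.30 and 8.05 in B6-ChrYSJL. The groups overlapped, B6 replicate 3 was the highest pool and B6-ChrYSJL replicate 3 the lowest, and the difference was −0.23 (95% interval −0.53 to 0.07, adjusted p 0.568). It was the lowest log2 fold change of any member, on a probe set with a residual SD of 0.209, and it rested on single pools: it was −0.097 without B6 replicate 3, closer to 0 than Rps3 at −0.13, −0.14 without B6-ChrYSJL replicate 3 and −0.35 without B6 replicate 2. The other stalk members gave 0.018 for Rplp0, −0.016 for Rplp1 and −0.058 for Rplp2, each smaller than its standard error of at most 0.06, and Rplp1 was the brightest member, with a mean of 13.97. None of the 4 stalk members was separated between strains.

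Around the mouth of the exit tunnel, where nascent chains leave, 3 of 7 listed proteins were measured. Rpl19 differed by 0.022, Rpl23a by 0.023 and Rpl26 by 0.044, all below their standard errors of about 0.06 in the main fit. The groups of Rpl19 did not overlap, at 13.348, 13.352 and 13.357 in B6 and 13.361, 13.382 and 13.381 in B6-ChrYSJL. Its standard error was 0.007 in the linear model without moderation (adjusted p 0.495). After repeated quantile normalization its difference was −0.010. Rpl5, which enters the ribosome with Rpl11 and the 5S rRNA and binds Mdm2 when free, measured 12.82, 12.79 and 12.82 in B6 and 12.84, 12.93 and 12.94 in B6-ChrYSJL. Its groups did not overlap, and the difference was 0.09 (SE 0.06, adjusted p 0.632). Rpl22, whose loss is known to block the development of αβ T cells, measured 10.74, 10.63 and 10.57 in B6 and 10.63, 10.68 and 10.67 in B6-ChrYSJL, with overlapping groups and a difference of 0.014. Rpl41, the smallest ribosomal protein, was among the lowest of the large subunit at −0.031.

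In the small subunit, Rps15a had the smallest p. It measured 10.85, 10.77 and 10.71 in B6 and 10.90, 11.02 and 10.92 in B6-ChrYSJL. All B6-ChrYSJL pools were higher, by 0.17 (SE 0.07, adjusted p 0.449), which is 1.13-fold with a 95% interval of 1.01 to 1.26. Rps3a1 measured 12.18, 12.18 and 12.24 in B6 and 12.24, 12.44 and 12.45 in B6-ChrYSJL. B6-ChrYSJL replicate 1 lay within the range of B6 and the other pools of that strain above it, and the difference of 0.18 (SE 0.08) was the highest log2 fold change of any core member, with an adjusted p of 0.471.

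Rps3, which sits at the mRNA entry channel and also acts in DNA repair, went the other way. It measured 11.81, 11.83 and 11.75 in B6 and 11.67, 11.71 and 11.69 in B6-ChrYSJL, all lower without overlap, a difference of −0.11 (SE 0.06, adjusted p 0.561). Rps13 measured 13.09, 13.06 and 13.11 in B6 and 13.14, 13.25 and 13.17 in B6-ChrYSJL, all higher, by 0.10 (SE 0.06, adjusted p 0.608). Rps4l gave the highest value of the small subunit, 0.24, with overlapping groups and an SE of 0.16. Rps19, mutated in Diamond-Blackfan anaemia, and Rpsa, also known as the laminin receptor, were among the lowest at −0.015 and −0.001. Rps6, the target of the S6 kinases, measured 13.18, 13.13 and 13.19 in B6 and 13.15, 13.25 and 13.26 in B6-ChrYSJL, with overlapping groups and a difference of 0.052 (SE 0.07).

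**Figure D3:**
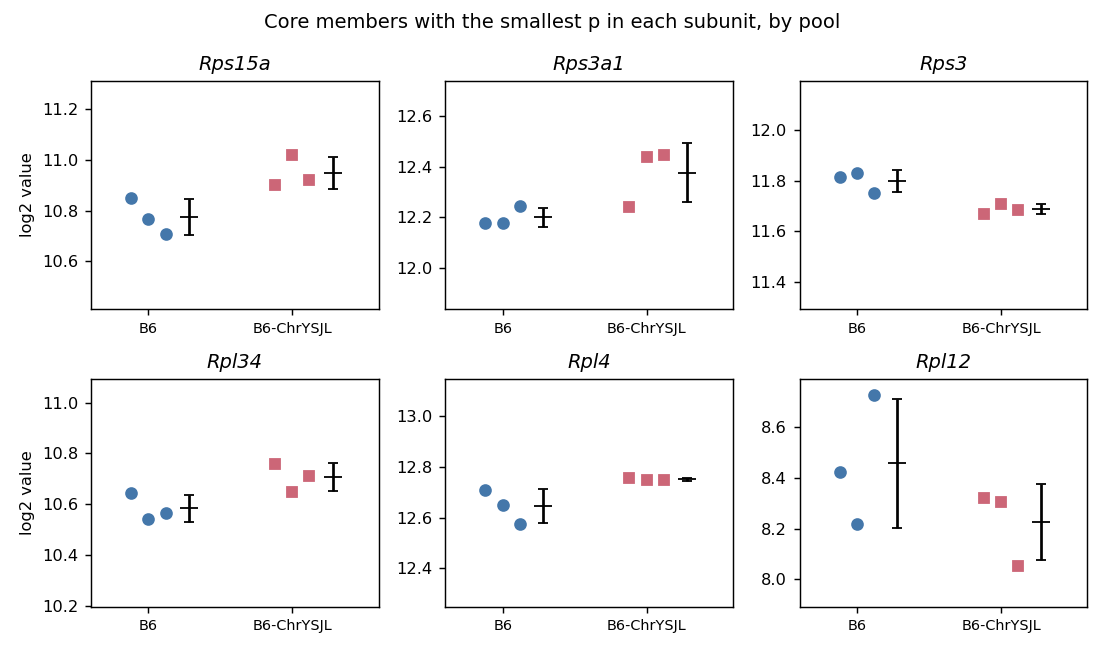
Log2 values by pool of the 3 core members with the smallest p in each subunit, circles for the 3 B6 pools and squares for the 3 B6-ChrYSJL pools, with mean ± SD beside them and each gene on its own axis. Rps15a, Rpl34 and Rpl4 are higher and Rps3 is lower in every B6-ChrYSJL pool, while Rps3a1 and Rpl12 overlap between strains.

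By position in the small subunit, the 10 members of the head that were measured had a median of 0.042 and the 11 members of the body a median of 0.031. Genes of the X chromosome, by gene and not by probe set, were Rpl10 at 0.018, Rpl36a at 0.081 and Rps4x at 0.031, none of them separated between strains. Of the related copies, Rps27l, a target of p53, differed by 0.11 (SE 0.10), Rpl7l1 by −0.014, Rpl10l by 0.013 and Rpl39l by 0.055, none past an FDR of 0.1.

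The study's list of alternatively spliced transcripts, chosen on these same samples, names 5 ribosomal proteins, all of the small subunit: Rps3a, Rps7, Rps13, Rps25 and Rps28. As members, these genes had log2 fold changes of 0.18, 0.041, 0.10, 0.087 and 0.052, respectively, with Rps3a1 standing for Rps3a. The list rests on other probe sets of Rps7, Rps13, Rps25 and Rps28, which gave −0.002, −0.020, 0.006 and 0.060 for the whole transcript. That of Rps3a carries several symbols. Exons were not analysed here.

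How much a member's value depends on its probe set was examined with all 217 probe sets that carry 1 member symbol. Ribosomal protein genes have many processed copies in the genome with nearly the same sequence, so probe sets of a gene and its copies can bind the same RNA. The annotation used here names the gene of a probe set and not its position. Values were shared in full with another probe set of the same gene by 19 of them, and 22 genes had 1 probe set, while Rps12 had 14. The log2 fold change was above 0 in 178 of 217, with a median of 0.049. Unadjusted p was under 0.05 in 8 of the 217 probe sets, all higher in B6-ChrYSJL, against a background of 4.69% higher and 5.92% lower. In this fit, the share that was higher did not exceed that of all transcripts. That depends on how variance is modelled: with an intensity trend, 10 of 38 large and 4 of 23 small subunit members were higher (background 5.13%). The smallest adjusted p was 0.400. Of these 8, 6 were not the brightest of their gene: one each of Rps14 (0.31), Rpl5 (0.23), Rpl10 (0.20), Rps18 (0.18), Rpl38 (0.17) and Rpl23a (0.15). Among 38 genes with several distinct probe sets, the dimmest had the higher log2 fold change in 20, with a median of 0.049 against 0.034 for the brightest.

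**Figure D4:**
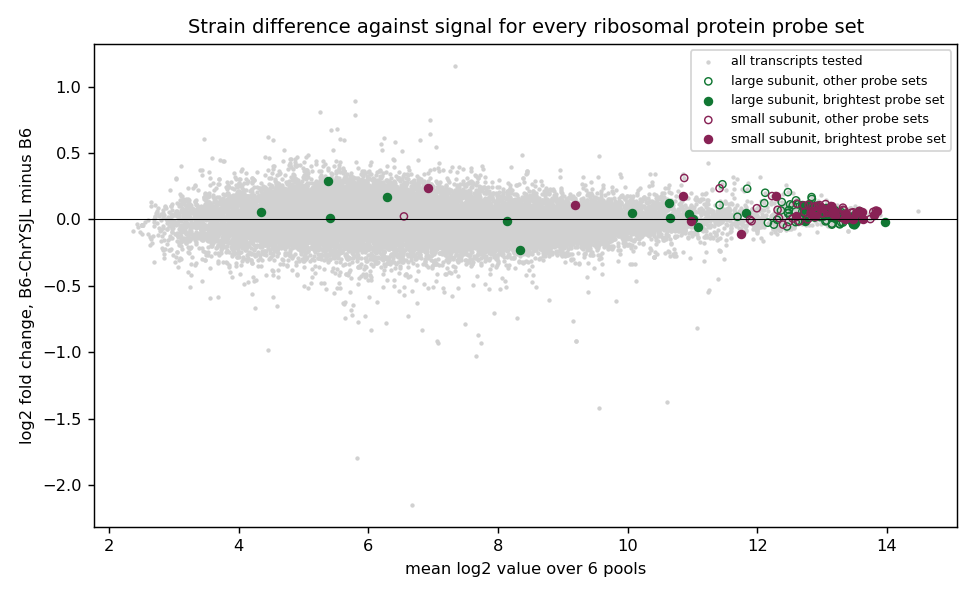
Log2 fold change, B6-ChrYSJL minus B6, against the mean log2 value over the 6 pools, for all 23410 transcripts tested (grey) and the 217 ribosomal protein probe sets (large subunit green, small subunit purple, filled for the brightest of a gene). The ribosomal protein probe sets crowd at the bright end close to 0, with 178 above 0.

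The shift was also described by level, over core probe sets of which several can belong to one gene. Core probe sets had a median of 0.045 between levels of 10 and 12 (n = 19), 0.060 between 12 and 13 (n = 81) and 0.035 between 13 and 15 (n = 96). Other transcripts at the same levels had medians of 0.0007 (n = 1188), −0.003 (n = 125) and 0.033 (n = 11), the last close to that of the core probe sets.

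Genes that work with the ribosome were described from lists. Elongation and initiation factors and other products of TOP messengers, 14 of 16 measured, had a median of −0.009. Of these, 6 were above 0 and none had an unadjusted p under 0.05 in either direction. Their median became 0.038 with 9 above 0 when arrays were centred on their median above background. It was −0.020 with 5 after centring on the array median and −0.027 with 4 after repeated quantile normalization. The smallest p were those of Nap1l1 at −0.27, Eif4b, a factor of the initiation helicase, at −0.098, and Eif3e at 0.13. Ribosome biogenesis factors, which process rRNA and assemble the subunits in the nucleus, had a median of −0.074 with 10 of 42 above 0. At an unadjusted p under 0.05, 4 were lower and none higher: Mdn1 at −0.24, Tsr1 at −0.18, Rpf2 at −0.17 and Ebna1bp2 at −0.16, against 5.92% lower over all transcripts. All 3 B6-ChrYSJL pools were lower for 9 of 42 (background 9.42%), and none passed an FDR of 0.1. This median was −0.037 after repeated quantile normalization, −0.027 when arrays were centred on their median above background, and −0.045 without B6 replicate 2, where 1 factor was left at an unadjusted p under 0.05.

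Among 14 of 18 listed genes of the mTOR, S6 kinase and LARP1 pathway the median was −0.081, which became −0.048 after repeated quantile normalization and −0.033 after centring above background. Mtor itself, the kinase, was lower at an unadjusted p under 0.05 (−0.19), and Tsc1 and Rptor gave −0.13 each. The 77 mitochondrial ribosomal proteins, which belong to a ribosome of their own, had a median of 0.000 with 39 above 0, which became 0.034 with 49 and 0.047 with 54 under these normalizations. Among them Mrps30 at 0.20, Mrps5 at −0.19 and Mrps9 at −0.18 had the smallest p. Fau, which encodes a core protein of the small subunit outside the rule, gave 0.011. The 16 genes of the rule reached only through probe sets with several symbols had a median of 0.047 with 13 above 0 and 9 higher in all pools (background 7.68%). Their median was 0.007 after repeated quantile normalization and 0.094 after centring above background.

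**Figure D5:**
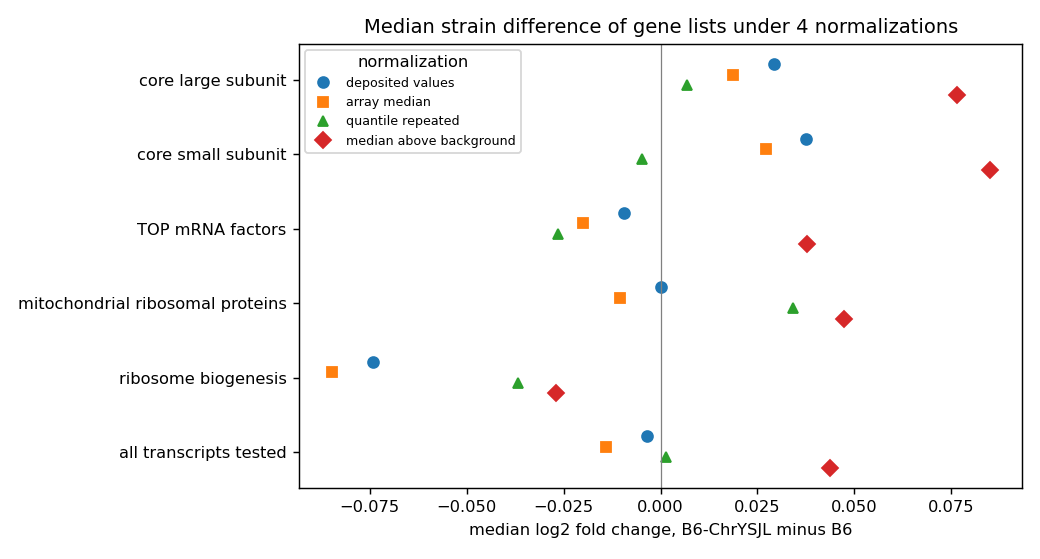
Median log2 fold change, B6-ChrYSJL minus B6, of gene lists and of all transcripts under 4 normalizations: the deposited values, centring on the array median, repeated quantile normalization and centring on the median above background. The core subunits move between close to 0 (0.007 and −0.005, quantile) and their highest values under the last, and ribosome biogenesis stays below 0 under all 4.

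Some listed transcripts of cell states and types moved with the strains more than the ribosomal proteins did. These lists were chosen with earlier results of these data known. Over all transcripts, 4.69% were higher and 5.92% lower at an unadjusted p under 0.05. Of 19 measured genes of activated or memory T cells, 15 were lower at this threshold and none higher, with a median of −0.30. Those with the smallest p were Ccr2 at −0.83, S100a6 at −0.77 and Klrg1 at −0.75. Of 12 listed genes of naive T cells, 10 were measured with a median of 0.017, and Igfbp4 and Dapl1 were lower at an unadjusted p under 0.05. B cell transcripts, 9 measured, averaged 6.67 to 6.73 over the B6 pools and 6.63 to 7.14 over the B6-ChrYSJL pools, with H2-Ab1 and H2-Eb1 higher and Cd72 lower at an unadjusted p under 0.05. Both CD8 transcripts were lower at this threshold, Cd8a at −0.54 and Cd8b1 at −0.28. Of 5 stromal transcripts 2 were higher, Pdpn and Col1a2, and medians of 6 myeloid, 3 natural killer and 1 erythroid transcripts were −0.083, −0.033 and −0.076, with 2, 1 and 1 of them above background. The part of these cells and states in the ribosomal protein values was not tested.

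How the variance of a bright transcript is modelled sets how many members fall under an unadjusted p of 0.05. The main fit draws each transcript's variance towards a common value, so that the median standard error of a member was 0.063 while its residual SD between pools had a median of 0.037. With a variance that follows intensity, 10 large subunit members were higher and none lower, and 4 small subunit members were higher and 1 lower, against backgrounds of 5.13% higher and 6.72% lower. Without moderation, the counts were 4 and none, and 3 and 1, against 3.92% and 5.79%. None of the named members passed an FDR of 0.1 in any of these fits, and the smallest adjusted p over all 16 settings was 0.203.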

How the data were processed

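The labels gave 3 arrays a strain, each a pool of 5 mice, and these pools were the replicates. The input was 50 ng of total RNA, amplified to cDNA that was hybridized to Affymetrix mouse gene arrays. The authors made log2 values with RMA in Partek and deposited 1 per transcript cluster and array. RMA subtracts background, sets the probes of all arrays to one distribution and combines the probes of a cluster. A difference common to a whole array is largely lost in such scaling. The deposited arrays still differed, with medians of 6.41 to 6.44 and upper quartiles of 8.13 to 8.19. GCOS appears in the submitters' notes on processing as well. No further scaling was applied. A gene symbol in the platform annotation was required, which left 23410 of 35556 clusters (21789 with 1 symbol and 1621 with several). Strains were compared as B6-ChrYSJL minus B6 with limma (version 3.58.1, R version 4.3.3), by lmFit and eBayes without a block. P values were adjusted by Benjamini-Hochberg across these clusters, and every FDR, adjusted p and 95% interval comes from this fit unless another is named. The study's methods used a linear model without moderation, which is among the alternatives.

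Members, lists and alternatives were chosen with earlier results of these data known. The list of core proteins, the start windows and motifs, and the use of every probe set or of the dimmest were added after seeing the data. Named were the 5 smallest p and the 3 highest and 3 lowest log2 fold changes of each subunit, members with a listed role or below background, and the 3 smallest p of every other list. Other probe sets at an unadjusted p under 0.05, the fourth biogenesis factor and the members named for lying without overlap were chosen after their values were seen. As alternatives, the variance model, the weights of arrays, the filter, the normalization, the probe set of a gene, a replicate block and the arrays included were varied. The fit was tested on simulated data. Plots were made in matplotlib 3.10.9 under Python 3.11.15.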

Additional observations from a re-analysis of the deposited data

How the results depend on the processing

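The number of transcripts past an FDR of 0.05 among all tested was 4, and became 0 without moderation (918 higher and 1356 lower at an unadjusted p under 0.05), 55 with an intensity trend, 13 above background only, 0 over all deposited clusters (838 higher and 1119 lower of those named), 11 after median centring, 2 after repeated quantile normalization, and 0 to 7 in limma leaving out 1 array (0 without B6 replicate 2 or B6-ChrYSJL replicate 1 or 2, 7 without B6 replicate 3). The median log2 fold change of large subunit members, 0.035, became 0.011 after repeated quantile normalization and 0.082 after centring on transcripts above background, and that of small subunit members, 0.041, became 0.0057 and 0.088. The small subunit gave 0.063 with the mean over probe sets and 0.057 with every probe set. Leaving out 1 array gave 0.024 to 0.047 for the large and 0.031 to 0.061 for the small subunit. The lowest came without B6-ChrYSJL replicate 2 in both; the highest without B6 replicate 1 and without B6-ChrYSJL replicate 1, respectively. The difference between subunits was −0.006 and lay between −0.015 and 0.003 without 1 array. It was 0.005 after repeated quantile normalization, so its sign was not stable. Under the replicate block, 3 transcripts passed and both medians were as before. Over all transcripts, deviations of same-numbered pools from their strain means correlated at −0.0001, −0.036 and −0.017. Whether pools of a number share a batch cannot be told from these values. None of the 32 named members passed an FDR of 0.1 in the main fit. None did in the 509 values over 16 settings either, which therefore says little on stability. Of these values, 28, in 14 members close to 0, changed sign by less than their standard error. The cause of these changes was not tested.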
